A study of Mus musculus with 14 samples.

Results

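Smarca4 is the ATPase of the BAF chromatin remodelling complex and Ezh2 the methyltransferase of Polycomb repressive complex PRC2, and the places that carry a peak of both were counted in 81K1 mouse embryonic stem cells before and after depletion of the BAF subunit Smarcb1. The members were the 163425 regions of 4 of the 10 region lists of the series, which hold 354481 regions in all. They were 79014 Smarca4 and 6708 Ezh2 peaks in control, and 72339 Smarca4 and 5364 Ezh2 peaks in Smarcb1 kd. A peak was called co-occupied when it shared at least 1 bp with a peak of the other factor in the same condition, and otherwise alone. 81K1 derives from the OG2 embryonic stem cell line, is 1 clone, and carries in both conditions a doxycycline-inducible shRNA against Smarcb1 in the Rosa26 locus. Control (ctrl) cells were untreated, and kd cells had received 1 µg/ml doxycycline for 72 h. There was 1 library per antibody and condition, so no difference below has a replicate check and no test was made. Intervals are 95% Wilson intervals of a share and cover counting error only. The depth behind each list is not known, and peaks that are neighbours or that belong to the same gene are not independent. Smarca4 chromatin was immunoprecipitated by Active Motif and Ezh2 chromatin in the authors' laboratory. The methods place the sequencing of Smarca4 at Active Motif too, whereas the labels name the authors' core facility for all libraries, so the place of sequencing is uncertain. In either case differences between the antibodies cannot be told apart from differences between the laboratories. The Smarcb1 level itself cannot be read from peak lists.

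BAF complexes use ATP to move nucleosomes, and in embryonic stem cells they bind enhancers and promoters. PRC2 trimethylates lysine 27 of histone H3 (H3K27me3) and sits mostly on CpG islands of developmental regulators, many of which also carry the promoter mark H3K4me3 and are then called bivalent. H3K27ac marks active promoters and enhancers. The 2 complexes are best known as antagonists, since BAF can evict Polycomb complexes, but both occur at bivalent promoters.

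To give the DNA behind the classes, 6 windows of 200 bases around peak centres are printed (mouse GRCm38, which is mm10, plus strand, sequence from the RefSeq assembly GRCm38.p6). The windows belong to high-scoring peaks of their class that lay outside annotated UTRs. They are single examples and not typical of their class, whose CpG medians are given further on. In the first group the capitals mark CpG. The control window came from a co-occupied Ezh2 peak at Nr5a1os (chr2:38711314-38711513), the antisense gene of the nuclear receptor Nr5a1, and held 7 CpG.
Nr5a1os: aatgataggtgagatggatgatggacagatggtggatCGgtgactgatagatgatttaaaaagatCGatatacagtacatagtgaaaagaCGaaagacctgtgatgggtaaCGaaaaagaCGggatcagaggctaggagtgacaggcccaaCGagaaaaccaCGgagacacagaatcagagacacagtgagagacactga
A further pair was taken from promoters that carried Smarca4 alone in control and both factors after kd. They were Pmepa1 (chr2:173275641-173275840), a feedback inhibitor of TGF-β signalling, with 17 CpG, and the stress kinase gene Map3k5 (chr10:19934242-19934441) with 31 CpG.
Pmepa1: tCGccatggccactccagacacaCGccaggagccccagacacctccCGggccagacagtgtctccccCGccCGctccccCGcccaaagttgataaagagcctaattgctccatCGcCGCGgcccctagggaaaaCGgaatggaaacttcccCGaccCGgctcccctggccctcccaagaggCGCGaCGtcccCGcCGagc
Map3k5: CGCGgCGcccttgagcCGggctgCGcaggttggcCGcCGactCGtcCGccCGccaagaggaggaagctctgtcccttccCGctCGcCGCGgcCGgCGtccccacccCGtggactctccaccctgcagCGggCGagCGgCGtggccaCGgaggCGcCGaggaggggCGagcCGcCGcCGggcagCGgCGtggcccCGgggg
An intergenic Ezh2 peak 9544 bp from the TSS of Emx2os (chr19:59468079-59468278), next to the forebrain homeobox gene Emx2, lacked Smarca4 in both conditions and had 13 CpG in its window.
Emx2os: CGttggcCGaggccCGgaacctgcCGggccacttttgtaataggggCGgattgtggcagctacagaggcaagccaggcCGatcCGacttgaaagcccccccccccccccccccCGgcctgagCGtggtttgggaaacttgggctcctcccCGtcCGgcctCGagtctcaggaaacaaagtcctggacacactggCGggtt
In the following window of a repeat-masked control Ezh2 peak without Smarca4, the capitals mark GGA. It lay in the gene body of Lmx1b (chr2:33628465-33628664), a LIM homeobox gene, and held 41 copies.
Lmx1b: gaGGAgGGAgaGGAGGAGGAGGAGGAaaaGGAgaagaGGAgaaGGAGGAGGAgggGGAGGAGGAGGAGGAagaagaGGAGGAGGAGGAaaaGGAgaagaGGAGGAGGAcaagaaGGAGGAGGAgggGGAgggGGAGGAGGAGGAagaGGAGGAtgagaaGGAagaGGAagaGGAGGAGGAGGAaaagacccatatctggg
The last window came from a high-scoring repeat-masked kd Ezh2 peak without Smarca4, which lay in the gene body of Gm13618 (chr2:66189259-66189458). Its capitals mark CCCTAA, the reverse complement of the telomeric hexamer TTAGGG, with 21 copies.
Gm13618: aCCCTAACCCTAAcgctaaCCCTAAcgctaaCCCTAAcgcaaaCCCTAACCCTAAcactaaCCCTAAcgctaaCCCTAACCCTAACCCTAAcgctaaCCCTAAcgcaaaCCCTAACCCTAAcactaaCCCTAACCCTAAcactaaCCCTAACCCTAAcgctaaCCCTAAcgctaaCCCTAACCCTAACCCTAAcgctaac

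The share of Ezh2 peaks that met a Smarca4 peak was higher in kd than in control. It was 44.5% in control (2984 of 6708, interval 43.3 to 45.7%) and 86.6% after kd (4645 of 5364, 85.7 to 87.5%). Most of this gap was gone once repeats were set aside. Of the control Ezh2 peaks, 3082 (46.0%) were repeat-masked over 50% or more of their length, against 174 (3.24%) of the kd peaks, and only 2.79% of these control peaks met Smarca4 (86 of 3082, 2.27 to 3.43%). Among Ezh2 peaks with less than 50% repeat-masked bases the share was 79.9% in control (2898 of 3626, 78.6 to 81.2%) and 88.3% after kd (4581 of 5190, 87.4 to 89.1%). When both lists of each antibody were also cut to the same number of such peaks by score, which was an alternative added with the values already known, the shares were 78.0% and 93.0%. For scale, Smarca4 peaks covered 1.80% of the reference in control and 1.49% after kd.

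By place, promoters (within 1 kb of a TSS) had the highest share in both conditions. Repeats included, 85.9% of Ezh2 peaks at a TSS met Smarca4 in control (1915 of 2229) and 94.0% after kd (3122 of 3323). In gene bodies the share was 34.2% (819 of 2394) and 79.0% (1116 of 1412), and in intergenic sequence 11.99% (250 of 2085) and 64.7% (407 of 629). With repeat-masked peaks left aside, the TSS share was 92.9% in control (91.7 to 93.9%) and 94.0% after kd (93.2 to 94.8%), so that the intervals overlapped. At equal numbers of such peaks it was 91.6% in control and 96.6% after kd, which lie further apart. Away from promoters the 2 conditions stayed apart, with 70.0% (67.3 to 72.6%) and 81.0% (78.8 to 82.9%) in gene bodies and 49.8% (45.4 to 54.2%) and 71.3% (67.3 to 75.0%) in intergenic sequence. The peaks without Smarca4 left there differed in kind. Of those away from promoters, 44.4% in control (260 of 586) carried none of the 3 histone marks, against 7.51% after kd (31 of 413). At any place, 26.2% of the control ones still held at least 5 copies of the hexamer GGAGGA, described below, against 0% after kd.

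**Figure D1:**
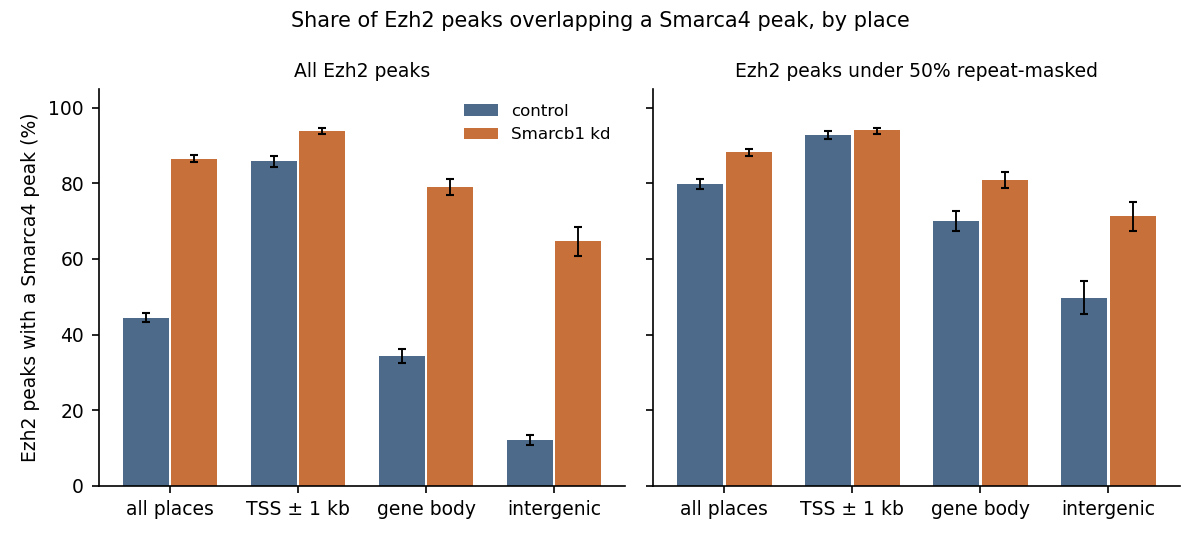
Share of Ezh2 peaks that overlap a Smarca4 peak (%), by place of the Ezh2 peak, in control (blue) and Smarcb1 kd (orange), for all Ezh2 peaks (left) and for those with less than 50% repeat-masked bases (right). Bars are shares and lines 95% Wilson intervals; control rises from 44.5 to 79.9% between the panels, whereas kd moves from 86.6 to 88.3%.

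Seen from Smarca4, co-occupancy was rare, and its share was higher after kd in each place. An Ezh2 peak lay under 4.21% of Smarca4 peaks in control (3326 of 79014, 4.07 to 4.35%) and under 8.32% after kd (6022 of 72339, 8.13 to 8.53%). At promoters the shares were 9.96% and 17.9%, in gene bodies 2.52% and 5.91%, and in intergenic sequence 1.23% and 2.14%. Around 65% of co-occupied Smarca4 peaks were at a TSS in either condition (64.9% and 64.7%), whereas 25.8% and 26.97% of the Smarca4 peaks alone were. Of the Smarca4 peaks alone, 9.84% in control and 21.5% after kd were repeat-masked, so that this share was higher after kd in the Smarca4 lists and lower in the Ezh2 lists.

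Co-occupancy was more frequent at peaks with more CpG in both conditions. Ezh2 peaks with Smarca4 held a median of 29 CpG in their middle 300 bp in control and 28 after kd (quartiles 21 to 37 and 20 to 37), where RefSeq promoters of the same length hold a median of 7. Repeat-masked control Ezh2 peaks without Smarca4 held a median of 0 and the other control Ezh2 peaks without Smarca4 a median of 6. Among Ezh2 peaks with less than 50% repeat-masked bases, 3.46% of control peaks with up to 4 CpG met Smarca4 (12 of 347), 52.5% of those with 5 to 14, 86.5% of those with 15 to 24 and 98.1% of those with 25 or more (1876 of 1913). After kd the same steps gave 20.5% (9 of 44), 62.2%, 86.8% and 97.4% (2849 of 2924). The intervals of the 2 conditions overlapped for peaks with at least 15 CpG and lay apart below that. Smarca4 peaks showed the same order at a lower level, from 0.135% to 19.5% in control and from 0.228% to 31.6% after kd. Peak width moved with these classes, since the median co-occupied Ezh2 peak was 618 bp wide in control and 818 bp after kd, against 270 and 432 bp for those alone outside repeats. A wider peak meets a Smarca4 peak more easily. With the centre base of each Ezh2 peak counted in place of the whole peak, again an added alternative, the shares over all Ezh2 peaks were 37.95% in control and 73.4% after kd.

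**Figure D2:**
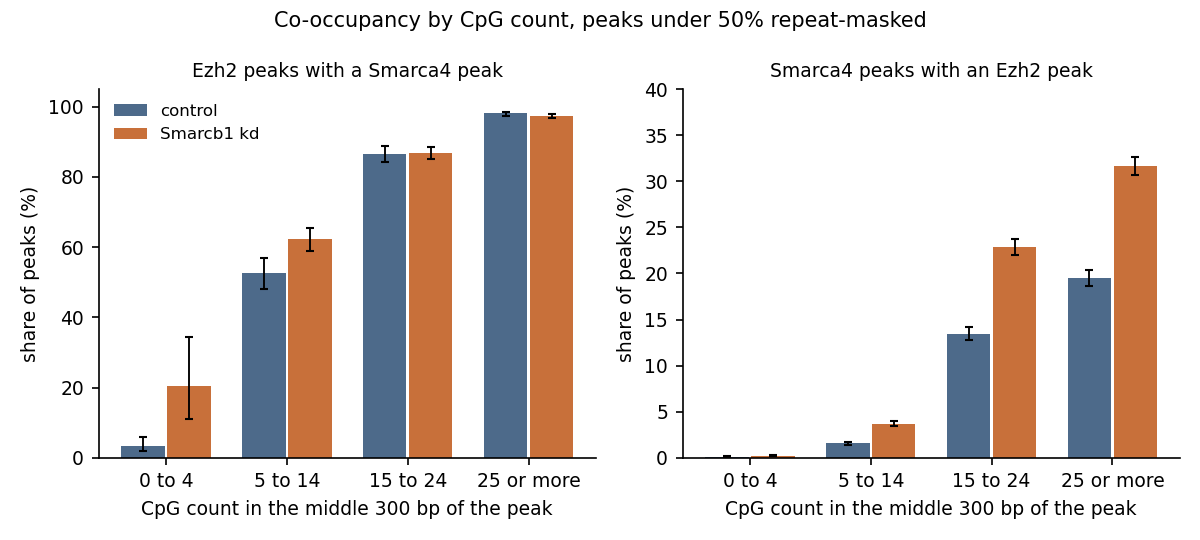
Share of Ezh2 peaks with a Smarca4 peak (left) and of Smarca4 peaks with an Ezh2 peak (right), in %, by the number of CpG in the middle 300 bp of the peak, for peaks with less than 50% repeat-masked bases in control (blue) and Smarcb1 kd (orange), with 95% Wilson intervals. The Ezh2 share climbs from 3.46 to 98.1% in control, and the vertical axes differ between the panels.

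The repeat-masked Ezh2 peaks without Smarca4 were of different sequence in the 2 conditions. In control, 73.1% of the 2996 peaks held at least 5 copies of GGAGGA in their middle 300 bp (either strand, overlaps not counted), and 35.6% consisted to at least 90% of purines on 1 strand. The Lmx1b window is an example of such a purine run. Of all RefSeq promoters, 0.286% held at least 5 copies and 0.00913% were as rich in purines. The same hexamer, at 5 copies or more, occurred in 26.2% of the control Ezh2 peaks without Smarca4 outside repeats but in 2.61% of the co-occupied ones. After kd, 110 repeat-masked peaks lacked Smarca4, of which 4.55% held at least 5 copies of GGAGGA and 24.5% (27) at least 5 copies of TTAGGG, as in the Gm13618 window. Of all RefSeq promoters 0.00304% held as many copies of TTAGGG. Of the control repeat-masked peaks without Smarca4, 98.3% (2944 of 2996) met no peak of either factor after kd. The shares outside repeats above leave out only peaks masked over 50% or more of their length. At least 5 copies of GGAGGA remained in 191 of the 728 control Ezh2 peaks without Smarca4 outside repeats, against 0 of 609 after kd. Those shares therefore do not give the full part of such sequence in the difference between conditions. What set the 2 Ezh2 lists apart in repeats was not tested.

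Co-occupied peaks lay in H3K27me3 islands almost without exception, and most lay in H3K4me3 islands too. Of the Ezh2 peaks with Smarca4, 99.4% overlapped an H3K27me3 island in control and 96.8% after kd, and 78.3% and 87.3% overlapped islands of both H3K27me3 and H3K4me3. H3K27ac islands were rare there in control, with 1.48% (44 of 2984, 1.10 to 1.97%), and covered 13.1% after kd (608 of 4645, 12.1 to 14.1%). Ezh2 peaks without Smarca4 outside repeats lay less often in H3K27me3 and H3K4me3. In H3K27ac lay 2.75% of them in control (1.79 to 4.21%), not below the co-occupied share, and 3.94% after kd, which was below it. Of these peaks without Smarca4, 60.7% lay in H3K27me3 in control and 90.3% after kd, and 16.9% and 31.5% in H3K4me3. The 110 repeat-masked kd peaks without Smarca4 stood apart, with 11.8% in H3K27me3 but 74.5% in H3K4me3 and 76.4% in H3K27ac. The H3K27ac list held 39091 islands in control and 51100 after kd and the H3K4me3 list 26130 and 33506, and Smarca4 peaks alone outside repeats also went from 19.5% to 35.7% in H3K27ac.

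**Figure D3:**
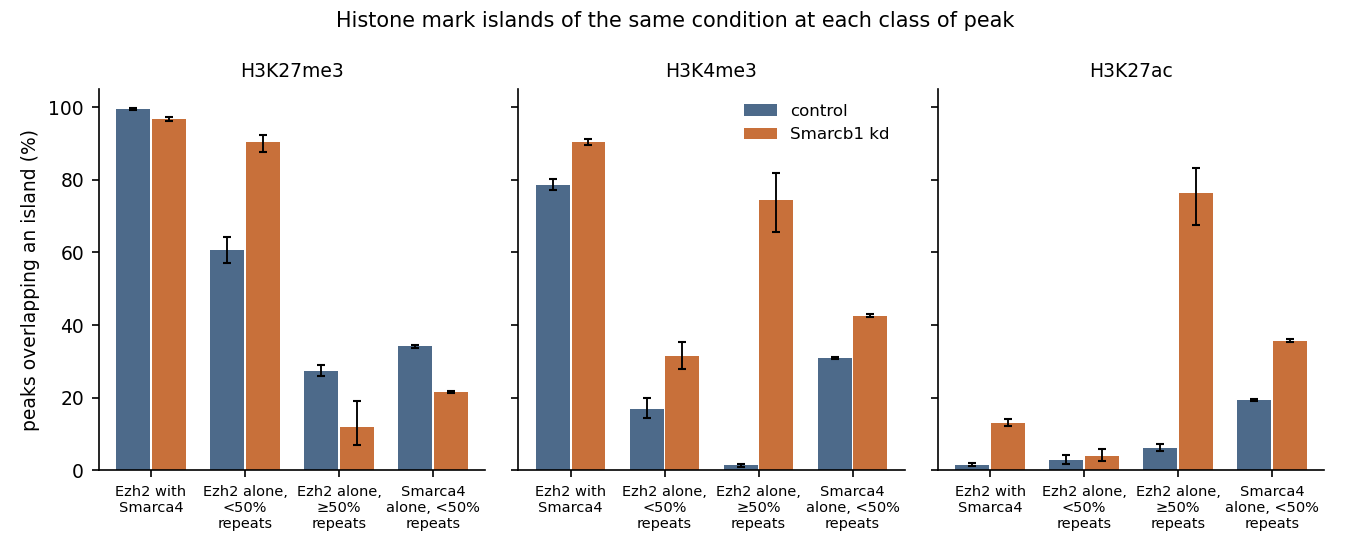
Share of peaks (%) that overlap an island of H3K27me3, H3K4me3 or H3K27ac of the same condition, for Ezh2 peaks with Smarca4, Ezh2 peaks without Smarca4 below and above 50% repeat-masked bases, and Smarca4 peaks without Ezh2 below 50%, in control (blue) and Smarcb1 kd (orange), with 95% Wilson intervals. H3K27me3 is at 99.4 and 96.8% of co-occupied peaks, and H3K27ac at 1.48 and 13.1%.

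Histone marks also sorted the Smarca4 peaks. Of Smarca4 peaks in islands of both H3K27me3 and H3K4me3, 28.4% met Ezh2 in control (2614 of 9190) and 52.4% after kd (5270 of 10055). In H3K27me3 without H3K4me3 the shares were 3.83% and 7.94%. In H3K4me3 without H3K27me3 they were 0.0651% (12 of 18432) and 0.530% (140 of 26419). Of the Smarca4 peaks outside all 3 marks, 4 of 25355 met Ezh2 in control and 5 of 19378 after kd. Ezh2 places H3K27me3, so the coincidence of these is no independent finding.

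The centres of overlapping peaks lay a median of 239 bp apart in control (3576 pairs, 43.6% within 200 bp) and 225 bp after kd (6186 pairs, 46.1% within 200 bp). The nesting turned round between conditions. In control 38.03% of pairs had the Ezh2 peak inside the Smarca4 peak and 18.6% the reverse, and after kd 23.5% and 39.8%. More Ezh2 peaks held at least 2 Smarca4 peaks after kd, 24.8% against 17.2%. Peak widths changed alongside, since the median co-occupied Smarca4 peak was 857 bp wide in control and 671 bp after kd, while Ezh2 peaks were wider after kd.

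Stronger peaks were co-occupied more often. The MACS2 score deposited with each peak is a whole number that grows with its significance, and it ranks peaks within their own list only. Peaks outside repeats were split by score into 5 classes of equal size. In the highest class of Ezh2 peaks, 96.7% met Smarca4 in control (701 of 725) and 98.7% after kd, and in the lowest class 75.6% and 76.1%. The control shares did not fall evenly, since the middle class had the lowest share, 69.2%. Of the highest class of Smarca4 peaks 12.3% met Ezh2 in control and 19.3% after kd, and of the lowest 0.993% and 3.65%. The median Smarca4 score was 152 with Ezh2 and 64 without outside repeats in control, and 111 and 58 after kd.

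Most control co-occupied Ezh2 peaks were again co-occupied after kd, but many kd ones had no Ezh2 peak in control. Of the 2984 control peaks, 96.9% met an Ezh2 peak, 92.6% a Smarca4 peak and 90.4% both after kd. Only 26 met neither. Of the 4645 kd peaks, 52.7% met Ezh2 in control, 96.9% Smarca4 and 51.3% both. The 2116 kd peaks (45.6%) at which Smarca4 but not Ezh2 was listed in control were the largest group among kd co-occupied peaks without Ezh2 in control. They had a lower Ezh2 score than kd co-occupied peaks with Ezh2 in control, a median of 70 against 300, and were narrower, 512 bp against 1242 bp. They already lay in H3K27me3 islands in control in 96.9% of cases (2051 of 2116, 96.1 to 97.6%), and their CpG median was 28 against 29. A missing peak is a missed threshold and no measured absence, and whether Ezh2 was absent at these places in control was not tested. Their Smarca4 score median in kd was 159, against 130 for the others. Of the 728 control Ezh2 peaks without Smarca4 outside repeats, 47.0% met an Ezh2 peak after kd and 13.9% both factors.

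Genes were then sorted by the factors they carry. Over gene regions (from 1 kb before the TSS up to the TES, 55413 genes), 3437 had both in control, 418 Ezh2 alone, 18109 Smarca4 alone and 33449 none. After kd these numbers were 4365, 99, 17473 and 33476. As shares of all gene regions, both factors were in 6.2% in control and 7.88% after kd, and Smarca4 in 38.9% and 39.4%. Of gene regions with Ezh2, 89.2% also had Smarca4 in control and 97.8% after kd. Where an overlapping pair was asked for, 2554 and 4279 gene regions had it, so that part of the control genes held both factors only at separate places. Within 1 kb of the TSS of the 21938 protein-coding genes, both factors were listed at 1522 (6.94%) in control and 2706 (12.3%) after kd, Ezh2 at 7.13% and 12.6%, and Smarca4 at 62.5% and 63.5%. Ezh2 alone was listed at 42 and 64 of these promoters. Of promoters with Ezh2, 97.3% had Smarca4 in control and 97.7% after kd, against 59.8% and 58.5% of promoters without Ezh2. Neighbouring genes can share a peak and then count more than once.

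The promoter classes were stable in 1 direction. Of the 1522 protein-coding promoters with both factors in control, 1460 (95.9%) had both after kd, 39 Smarca4 alone, 20 Ezh2 alone and 3 none. In turn, 1221 of the 2706 with both after kd had carried Smarca4 alone in control, 15 Ezh2 alone and 10 none. The 1221 fell to 663 when both lists of each antibody were cut to equal numbers of peaks outside repeats by score, and the 39 rose to 62, whereas 1411 then had both factors in both conditions. That alternative was added later, and planned ones lowered the 39. They gave 1447 and 27 at equal numbers with repeats included, and 1225 and 24 outside repeats without that cut. A score of at least 50 gave 1142 and 32, and leaving out chromosomes 8, X and Y gave 1116 and 33. At the 1221 promoters H3K27me3 was listed in 96.7% in control and 96.4% after kd, and H3K27ac in 5.98% and 21.1%. At the 1460 promoters with both factors throughout, H3K27ac was listed in 1.10% in control (16) and 11.3% after kd (165). The 10397 promoters with Smarca4 alone throughout went from 29.2% to 55.4%, so H3K27ac was listed more often in each of these classes.

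Around the TSS both factors leaned downstream. At promoters with both, the centre of the Ezh2 peak lay a median of 344 bp downstream of the TSS in control and 325 bp after kd, and that of the Smarca4 peak 401 and 326 bp. At promoters with Smarca4 alone it lay 248.5 and 205 bp downstream. At 1000 bp downstream, 57.1% of control promoters with both were under a Smarca4 peak and 43.0% of kd ones, against 34.3% and 26.9% of promoters with Smarca4 alone. The Smarca4 peaks of co-occupied control promoters thus reached further into the gene.

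**Figure D4:**
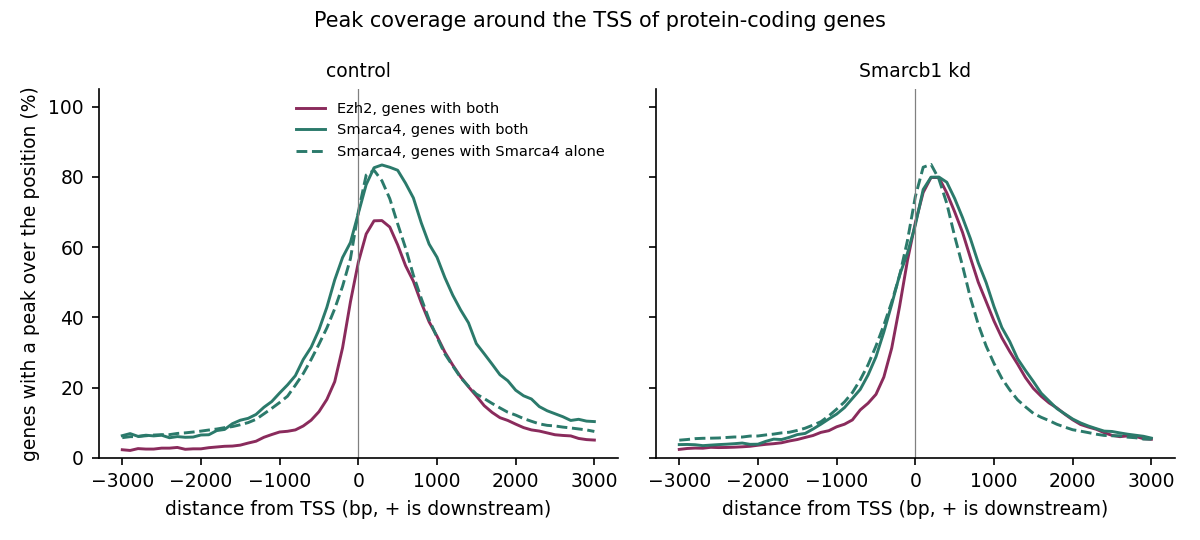
Share of protein-coding genes (%) with a peak over each position from 3000 bp upstream to 3000 bp downstream of the TSS, in control (left) and Smarcb1 kd (right). Solid lines show Ezh2 (purple) and Smarca4 (green) at genes with both factors within 1 kb of the TSS and the dashed line Smarca4 at genes with Smarca4 alone; all curves peak downstream of the TSS.

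Among the 11 gene lists, those of developmental transcription factors had both factors most often. Against the 6.94% and 12.3% of all protein-coding promoters, both were listed at 30 of 39 Hox genes in control and 34 after kd, at 46 and 45 of 54 neural regulators, at 31 and 38 of 42 regulators of mesoderm and endoderm, and at 33 and 45 of 61 signalling ligands and receptors. Among the Hox genes, the homeobox selectors of body axis identity, Hoxd9 had an Ezh2 score of 1370 in control and 1027 after kd and a Smarca4 score of 136 and 130. Hoxa4 had Ezh2 scores of 620 and 1121 and Smarca4 scores of 71 and 83. At Hoxd13 the Ezh2 scores were 406 and 890 and the Smarca4 scores 48 and 74. Hoxd8 had both in control (559 and 190) and an Ezh2 peak of 1182 without Smarca4 after kd. Within 1 kb of its TSS Hoxb8 carried Ezh2 without Smarca4 in both conditions, with scores of 358 and 438, although its gene region held both factors. Hoxb2, Hoxb3 and Hoxc4 had neither factor within 1 kb of their annotated TSS, although their gene regions held both. Hoxa7, Hoxa10 and Hoxb13 went from Smarca4 alone to both and Hoxa6 from Ezh2 alone to both, with kd Ezh2 scores from 104 at Hoxa10 to 324 at Hoxa6. Apart from Hoxd9, Hoxa4, Hoxd13 and Hoxd8, the Hox genes given here were named after their values were seen.

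Genes of this and the later long lists are ranked by the higher of their Ezh2 scores in the 2 conditions. In the neural list the highest were at Irx3 (583 in control, 1131 after kd), Emx2 (1121 and 544), Lhx2 (620 and 1105) and Neurod2 (879 and 1089), all with both factors in both conditions. These are regulators of brain patterning and neuronal differentiation. The Smarca4 score of Emx2 was 199 in control and 61 after kd. In the list of mesoderm and endoderm regulators Hand2, needed in heart and limb, had Ezh2 scores of 685 and 2006 and Smarca4 scores of 74 and 231. Foxc2 (772 and 1352), Foxf1 (1185 and 1266) and Twist2 (437 and 1185), regulators of mesenchyme, followed by Ezh2 score and had both factors throughout. Among the signalling genes the leading ligands were Wnt7b (616 and 1747), Bmp6 (545 and 1395), Ihh (661 and 1216) and Wnt7a (275 and 965). Within 1 kb of the TSS no member of this list went from both factors to fewer, although over gene regions 1 did (Fgfr1, named after its values were seen), and 12 went from Smarca4 alone to both. Among these were 6 genes of Frizzled receptors for Wnt (Fzd3, Fzd6, Fzd7, Fzd8, Fzd9 and Fzd10), the Notch ligand genes Jag1 and Jag2, and Bmp4, named after their values were seen.

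Of all protein-coding promoters 6.94% had both factors in control and 12.3% after kd, so that the share over all genes was itself higher after kd. Adhesion genes had both factors at 8 of 46 promoters in control (17.4%) and at 19 after kd (41.3%). The 11 more all came from Smarca4 alone, and after kd 13 had Smarca4 alone and 14 neither factor. Cdh22 led by Ezh2 score (637 and 1578), followed by Cdh11 (334 and 628), Cdh2 (126 and 438) and Cdh4 (77 and 425). These are classical and type II cadherins, which bind cells to one another. At Cdh2, the N-cadherin gene, the Smarca4 scores were 312 and 331.

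Of 28 pluripotency promoters 0 had both factors in control and 2 after kd, beside 6.94% and 12.3% of all protein-coding promoters, so that these counts were near that background. Smarca4 alone was listed at 25 and 23. Tbx3 had Smarca4 at 249 in control, and Smarca4 at 296 with Ezh2 at 95 after kd. Prdm14 had Smarca4 at 221 in control, and Smarca4 at 153 with Ezh2 at 29 after kd. Pou5f1 (983 in both conditions), Sox2 (314 and 707), Nanog (144 and 204) and Klf4 (287 and 296) had Smarca4 alone in both, given here as Smarca4 scores. The Klf4 promoter lay in H3K27me3 and H3K4me3 islands in control and in H3K4me3 and H3K27ac islands after kd. Cytoplasmic ribosomal protein genes, which are active in every cell, had no Ezh2 peak at any of 74 promoters in either condition, and Smarca4 alone at 69 and 73.

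The genes of the complexes themselves carried mostly Smarca4 alone. For scale, 6.94% of all protein-coding promoters had both factors in control and 12.3% after kd. The BAF list had both at 13.3% and 16.7% and the PRC2 list at 8.33% in each condition, so that these counts were near that background. The PRC1 list had both at 15.8% and 36.8%, and the CDK inhibitor list at 42.9% in each condition. Of 30 BAF subunit genes 4 had both in control, namely the ATPase gene Smarca2, Dpf3, Bcl11a and Bcl11b, and Dpf1 joined them after kd with an Ezh2 score of 60. Their Ezh2 scores were 95 and 451 at Smarca2, 573 and 374 at Dpf3, 126 and 288 at Bcl11a, and 93 and 425 at Bcl11b. Dpf1 and Dpf3 are subunits of neuronal or muscle forms of the complex. Smarcb1 had Smarca4 alone, with a score of 130 in control and 106 after kd. Of 12 PRC2 genes Phf19 alone had both, in both conditions, with Ezh2 scores of 88 and 368, and Ezh2, Eed and Suz12 had Smarca4 alone. Of 19 PRC1 genes 3 had both in control (among them Cbx8 and Pcgf5) and 7 after kd, when Cbx2, Phc2, Yaf2 and Bmi1 were added. Within 1 kb of its TSS, Bmi1 had Ezh2 without Smarca4 in control (257) and both after kd (374 and 101). Of 7 CDK inhibitor genes Cdkn1c, Cdkn2a and Cdkn2c had both in both conditions. At Cdkn2a, a brake on the cell cycle known as a BAF and Polycomb target, Ezh2 scored 85 in control and 374 after kd and Smarca4 190 and 161.

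**Figure D5:**
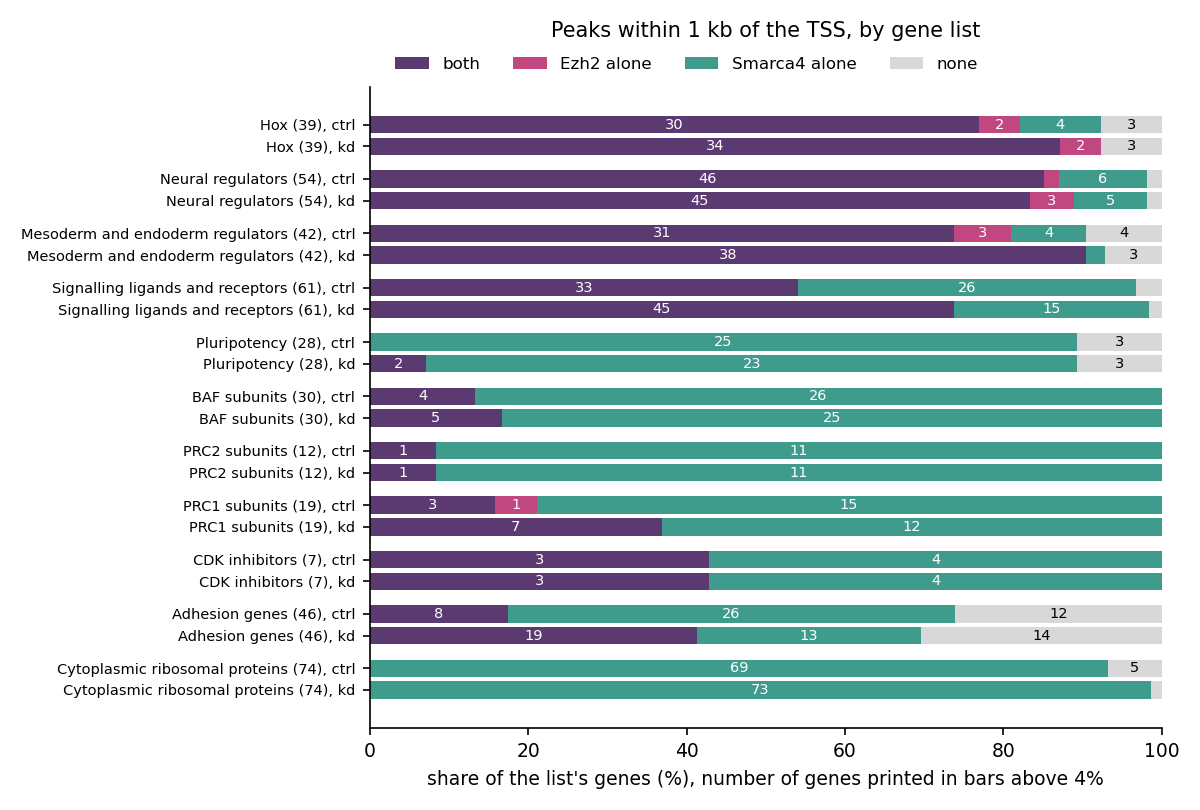
Share of the genes of 11 lists (%; list size in parentheses) with both factors, Ezh2 alone, Smarca4 alone or neither within 1 kb of the TSS, in control (ctrl) and Smarcb1 kd, with the number of genes in each part. Both factors are listed at 30 and 34 of 39 Hox genes, at 0 and 2 of 28 pluripotency genes and at none of 74 ribosomal protein genes.

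Promoters that went from Smarca4 alone to both were led by Bahd1, a chromatin silencer with a BAH domain, with an Ezh2 score of 914 and Smarca4 scores of 171 in control and 48 after kd. Inhbb, an activin subunit, had an Ezh2 score of 613 after kd with Smarca4 at 616 and 307. Pmepa1 had 613 with Smarca4 at 344 and 120, Plekha2 541 with 510 and 424, and Sh3rf1 523 with 632 and 388. The promoters of all 5 lay in H3K27me3 and H3K4me3 islands in both conditions. H3K27ac was listed at Pmepa1 in both conditions, and at Bahd1, Inhbb and Sh3rf1 after kd.

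Promoters that went from both to Smarca4 alone were led by Sox10, a neural crest regulator, with an Ezh2 score of 172 in control and Smarca4 at 98 and 190. Pak1 (145), Uros (135), Coil (131) and Ggn (128) followed by control Ezh2 score. Coil, the gene of the Cajal body protein coilin, had no H3K27me3 in either condition. Promoters that went from both to Ezh2 alone were led by neural and homeobox regulators. At Pou3f3 Ezh2 scored 604 and 1462 with Smarca4 at 118 in control, at Isl2 78 and 815 with 49, at Lhx8 437 and 756 with 38, and at Zfp804a 279 and 642 with 57. With Hoxd8, given above, these were the 5 with the highest score. This change covers only the 1 kb on either side of the TSS. The kd Ezh2 peaks of Pou3f3, Isl2 and Lhx8 met a Smarca4 peak beyond it and so were co-occupied as peaks. Over the gene region of Lhx8, Smarca4 scored 74 in control and 130 after kd. All 20 promoters of this change lay in H3K27me3 and none in H3K27ac in both conditions.

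The strongest single peaks were mostly at promoters. After Hoxd9, the co-occupied Ezh2 peaks with the highest control scores were 1 in the gene body of Zfhx3 nearest to the TSS of Gm38042 (1370), then Nr5a1os (1258), Fam155a (1185) and Foxf1 (1185). After kd they were Trank1 (2080), Hand2 (2006), Nr5a1os (1753), Wnt7b (1747) and Grb10 (1679), an imprinted adaptor of the insulin receptor. Ezh2 peaks without Smarca4 reached lower scores, led in control by those near Emx2os (497), Gm48563 (464), Lmx1b (459), Npas3 (457) and Hcrtr1 (456), and after kd by Hoxd8 (1182), Npas3 (769), Zfp804a (642), Emx2os (544) and Pax3 (504). Those at Gm48563, Lmx1b and Hcrtr1 were repeat-masked and met no kd Ezh2 peak, while those near Emx2os and Npas3 lacked Smarca4 in both conditions.

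The co-occupied Smarca4 peaks with the highest scores had Ezh2 partners below the median partner score, which was 109 in control and 203 after kd. In control they were at the Wnt antagonist gene Sfrp1 (Smarca4 925, Ezh2 49), near Gm5456 (903 and 71), and at Cabp1 (892 and 57), Ppp1r9b (890 and 63) and Akain1 (867 and 18). After kd they were at Smpd3 (1884 and 103), Scrt2 (1752 and 144), Hpca (1294 and 87), Gm13169 (1214 and 74) and Znrf1 (1144 and 78). Cabp1 and Hpca encode neuronal calcium sensors and Scrt2 a neural transcriptional repressor. None of the 5 kd peaks met an Ezh2 peak in control, and the 5 control ones all met Ezh2 after kd. Gm13169 lay in an H3K4me3 island without H3K27me3, whereas the other kd peaks lay in both.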

How the data were processed

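ChIP-seq peak lists of Smarca4 and Ezh2 and island lists of H3K27me3, H3K4me3 and H3K27ac, 1 library per antibody and condition, were used (10 of 14 samples; the other 4 are input samples). Groups came from the sample labels. By the methods, the authors trimmed reads, aligned them to mm10 on the Galaxy platform (Bowtie2), kept uniquely mapped reads with few mismatches with samtools 1.9, and called Smarca4 and Ezh2 peaks with MACS2 at default parameters and islands with SICER (window 200 bp, gap 600 bp). Methods name input as background and the labels and peak names IgG, so the background is uncertain. The score deposited with each peak is the authors' MACS2 score, lowest 13, which is not scaled between libraries. The p-value deposited with each island was used by the authors as a filter and only recorded here. The labels give a nominal read number per library only, and the lists carry no read counts, so the depth reached in each library is unknown. The authors' differential calls were not used.

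Peaks off the 19 autosomes and the sex chromosomes were left out (4 to 61 per list). Overlaps of at least 1 bp were computed in Python 3.11.15 with numpy 2.4.6 and pandas 2.3.3, and checked against bedtools 2.31.1 and on simulated lists. Places and genes came from GENCODE M21, a peak within 1 kb of a TSS counting as TSS, otherwise within a gene as gene body, otherwise as intergenic. Repeat-masked bases, CpG and hexamers came from the RefSeq GRCm38.p6 sequence and its promoter table (250 bases before to 50 after each start). Members, lists and rules were chosen with earlier results of these data known. Named genes are the 5 peaks with the highest score of each class and condition, members of the 11 lists (all of lists up to 30 genes that the text sorts, the 4 with the highest Ezh2 score of longer lists), Cdkn2a, Tbx3, Klf4, Sox2, Pou5f1, Nanog and Smarcb1, and the 5 leading promoters of each change of class. Alternatives covered the score threshold, overlap rule, list length, repeats, chromosomes and gene definition. Some items are not reported here.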

Additional observations from a re-analysis of the deposited data

How the results depend on the processing

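Each value below is given as control, then kd. The share of Ezh2 peaks with Smarca4 (44.5% and 86.6%) was 43.0% and 81.6% at a MACS2 score of at least 50, 79.9% and 88.3% (88.25% with both lists filtered) outside repeats, 41.5% and 84.3% when 50% of the shorter peak had to overlap, 48.6% and 89.9% within 500 bp, and 51.4% and 65.2% as a share of bases. Chosen after the data were seen, the centre base gave 37.95% and 73.4%, and equal numbers of peaks outside repeats 78.0% and 93.0%. The share of Smarca4 peaks with Ezh2 (4.21% and 8.32%) was 4.73% and 10.3% at the higher score, 4.52% and 10.2% outside repeats, 3.74% and 7.74% with the stricter overlap, 5.11% and 9.59% within 500 bp, 3.81% and 8.61% of bases, 3.07% and 7.16% by the centre base, 3.83% in control with equal numbers of peaks, and 5.34% in control with equal numbers outside repeats. Gene regions with both factors (3437 and 4365) became 2085 in control when 1 kb on either side of the TSS was asked for. Each setting left the kd value above the control value. The other 23 of 52 alternative values stayed within the interval of the share, or within 1.5 times the count, among them those without chromosomes 8, X and Y. The cause was not tested.

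No paired analysis was possible because each group had 1 library and no result came from a test, and leaving out a replicate gives no value for the same reason. The depth reached in each library is unknown, and a list that is longer or shorter for technical reasons moves each count. The score threshold and the cut to equal numbers act on scores that are not scaled between libraries.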

Other observations

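Smarca4 peaks without Ezh2 in repeats, whose share of the Smarca4 peaks alone is given above, numbered 7448 in control and 14235 after kd. Of these, 67.2% lay in an H3K27ac island in control and 71.3% after kd, and 51.7% and 62.4% in an H3K4me3 island. The share of Ezh2 peaks outside repeats that met Smarca4 varied between chromosomes with at least 20 such peaks, from 68.2% on chromosome 1 to 90.0% on chromosome 7 in control and from 80.5% on chromosome 13 to 92.5% on chromosome 8 after kd.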
